A study of Mus musculus with 10 samples.

Results

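The genes described here are the proteasome genes of the mouse, taken as the genes with a RefSeq mRNA record whose symbol begins with Psm, one of the letters a to g and a digit, or is Pomp. In the 10 samples 45 of the 16082 genes with RefSeq mRNA transcripts matched, through 48 of 18966 such transcripts. Of the 45 genes, 44 encode subunits, assembly factors, activators or the inhibitor of the proteasome, and Psmc3ip, a factor of meiotic recombination, matched by its symbol alone. A further 7 protein-coding genes of RefSeq fit the rule but had no value in the tables used here. These are Psma1, Psmb2, Psmb8, Psmb9, Psme2, Psmg3 and Psme3ip1, so that of the subunits of the immunoproteasome only Psmb10 could be followed.

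The proteasome is the protease that degrades proteins marked with ubiquitin. Its barrel, the 20S core, is built of rings of alpha subunits, which form the gate, and of beta subunits, some of which cut the substrate. The 19S cap on its end consists of a base, with ATPases that unfold the substrate, and a lid, and other activators such as the PA28 and PA200 proteins can sit on the same end. Immune cells exchange catalytic beta subunits for inducible ones, male germ cells exchange the alpha subunit Psma7 for Psma8, and PA200, encoded by Psme4, is known for its part in the removal of histones from spermatids. Mature sperm are held to transcribe little or nothing, so their RNA is largely what earlier stages left.

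RNA of sperm and of testes was sequenced after removal of ribosomal RNA. All mice were males, of the strain C57BL/6 by the labels and C57BL/6J by the methods of the study. By the labels they were aged 3 to 5 months, while the methods give a younger range for the control mice. The cadmium group had received CdCl2 as 1 intraperitoneal injection at 3 mg/kg, the controls had received saline, and both were killed on day 35. There were 4 samples of control sperm, each a pool from several mice, 2 of control testes, 2 of cadmium sperm and 2 of cadmium testes. Control sperm pool 1 was left out by the study and is given here but not tested. The control testes came from the mice that gave the sperm, but the sources do not say which testes go with which pool, and they give no pool sizes for the cadmium samples. Where samples of a group are not known to come from separate animals, a p-value measures only the spread between these samples, which may be technical.

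The libraries were shallow for mRNA and unequal in depth. The expected counts of a sample, which estimate the fragments of each transcript, summed to between 366455 and 1058017 in control sperm, 1155491 and 1254477 in cadmium sperm, and 2606086 to 2866856 in testes. RefSeq mRNA transcripts held 9.14 to 13.6% of these counts, and the proteasome genes together held 26 to 314 counts per sample. Of the 45 genes, 29 had under 10 counts in every sample, 64.4% of the set and likewise 64.4% of all RefSeq mRNA genes. On the 1513-base transcript of Psmd8, 1 count was worth 1.86 FPKM (fragments per kilobase, scaled to library size) in control sperm pool 3 and 0.237 FPKM in control testes 1, so a level near 1 FPKM rests on a single count in the shallowest pool. Among the markers, the meiotic list (Sycp1, Ldhc and others) summed to 0 to 10.1 FPKM in sperm and 21.4 to 53.7 FPKM in testes, the spermatogonial list to 0.39 to 3.75 and 19.3 to 27.5, and the Sertoli list to 0 to 1.45 and 0.57 to 2.66. The list for sperm and spermatids summed to 251 to 506 FPKM in sperm and 478 to 586 FPKM in testes. Its highest gene was Prm2 in every sample of both tissues, and Prm1 was higher in each testes sample than in any sperm sample. The Leydig list summed to 0 to 27.5 FPKM in sperm and 15.6 to 22.2 in testes, and the epididymal list to 2.79 to 12.97 and 5.80 to 16.1. The 27.5 FPKM was Star alone, in control sperm pool 3, and the Leydig list reached at most 6.90 FPKM in the other sperm samples. The leukocyte list was at 135 to 254 FPKM in sperm and 4.87 to 9.64 in testes. In sperm nearly all of it was H2-Ab1, which was at 0.32 to 5.16 FPKM in testes. Without H2-Ab1 the list was at 0 to 5.30 FPKM in sperm and 2.97 to 4.74 FPKM in testes. The leukocyte-defining Ptprc was at 0 in 8 of 10 samples. The part of cell composition in the results was not tested, and in whole samples fewer cells of a type and less RNA per cell cannot be told apart.

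Every testes sample listed more of the proteasome genes than any sperm sample. Control testes 1 and 2 each listed 36 of the 45 genes above 0, and cadmium testes 1 and 2 listed 34 and 37. Control sperm pools 1 to 4 listed 6, 17, 4 and 3 genes, and cadmium sperm 1 and 2 listed 20 and 19. The testes libraries were also deeper than every sperm library. Within a tissue the number did not always follow the total: control sperm pool 4, deeper than pools 1 and 3, listed the fewest genes. Part of the gap between the tissues remained at equal depth. With each library thinned to 366454 counts, testes listed 37.7 to 42.1% of the 45 genes and sperm 6.67 to 30.3% (means of 20 draws). Of all RefSeq mRNA genes, thinned testes listed 38.2 to 40.6% and thinned sperm 9.61 to 34.0%. The proteasome genes thus lay close to the share of other mRNA genes in most libraries, and control sperm pool 4 stood apart with 6.67% of the set against 19.7% of all such genes.

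**Figure D1:**
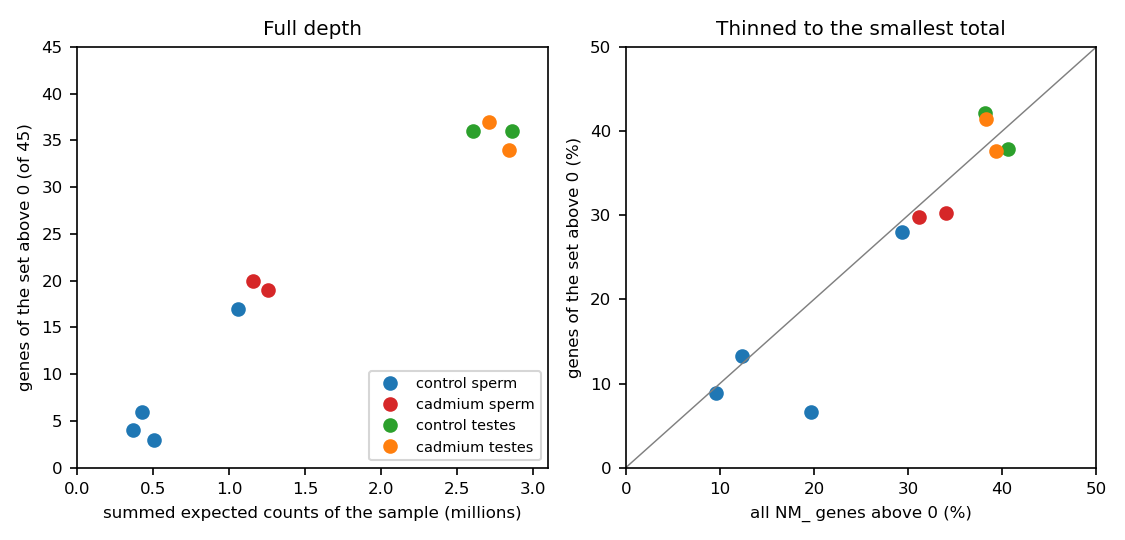
Left, the number of the 45 genes above 0 (y axis) against the summed expected counts of each sample (x axis). Right, after thinning to equal totals, the percentage of the 45 genes above 0 (y axis) against that of all RefSeq mRNA genes (x axis), with a line where both are equal. Each point is 1 sample, coloured by group, and the 4 testes samples lie above the 6 sperm samples in both panels.

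No proteasome gene was found in sperm only (0 of 45, against 3.79% of all RefSeq mRNA genes). Of the 45 genes, 30 were listed in at least 1 sample of each tissue and 15 in testes alone (33.3%, against 33.5% of all RefSeq mRNA genes). The 15 were the core subunits Psma2, Psma4, Psma6, Psma8 and Psmb6, the ATPases Psmc2 and Psmc6, the lid subunit Psmd12, the assembly factors Psmd5, Psmd10, Pomp, Psmg1, Psmg2 and Psmg4, and Psmc3ip. Over the 6 sperm samples, 0 of 4767297 counts allows a share of up to 6.29e-05% (3 counts). The share of all counts in testes, taken as measured, was above that limit for 6 of the 15. It ran from 1.30-fold the limit for Psma2 and Psmc3ip, with 9 counts each in testes, to 4.47-fold for Psma4. For the other 9, an absence from sperm was not detectable at this depth. These limits cover the counting error of sperm only, not that of testes, so a ratio close to 1 does not show a difference. No test was made on the pooled counts. In contrast, 27 of the 45 genes were above 0 in all 4 testes samples (60%, against 52.2%), and only Psmd3 and Psmd8 were above 0 in all 10 samples (4.44%, against 4.59%).

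**Figure D2:**
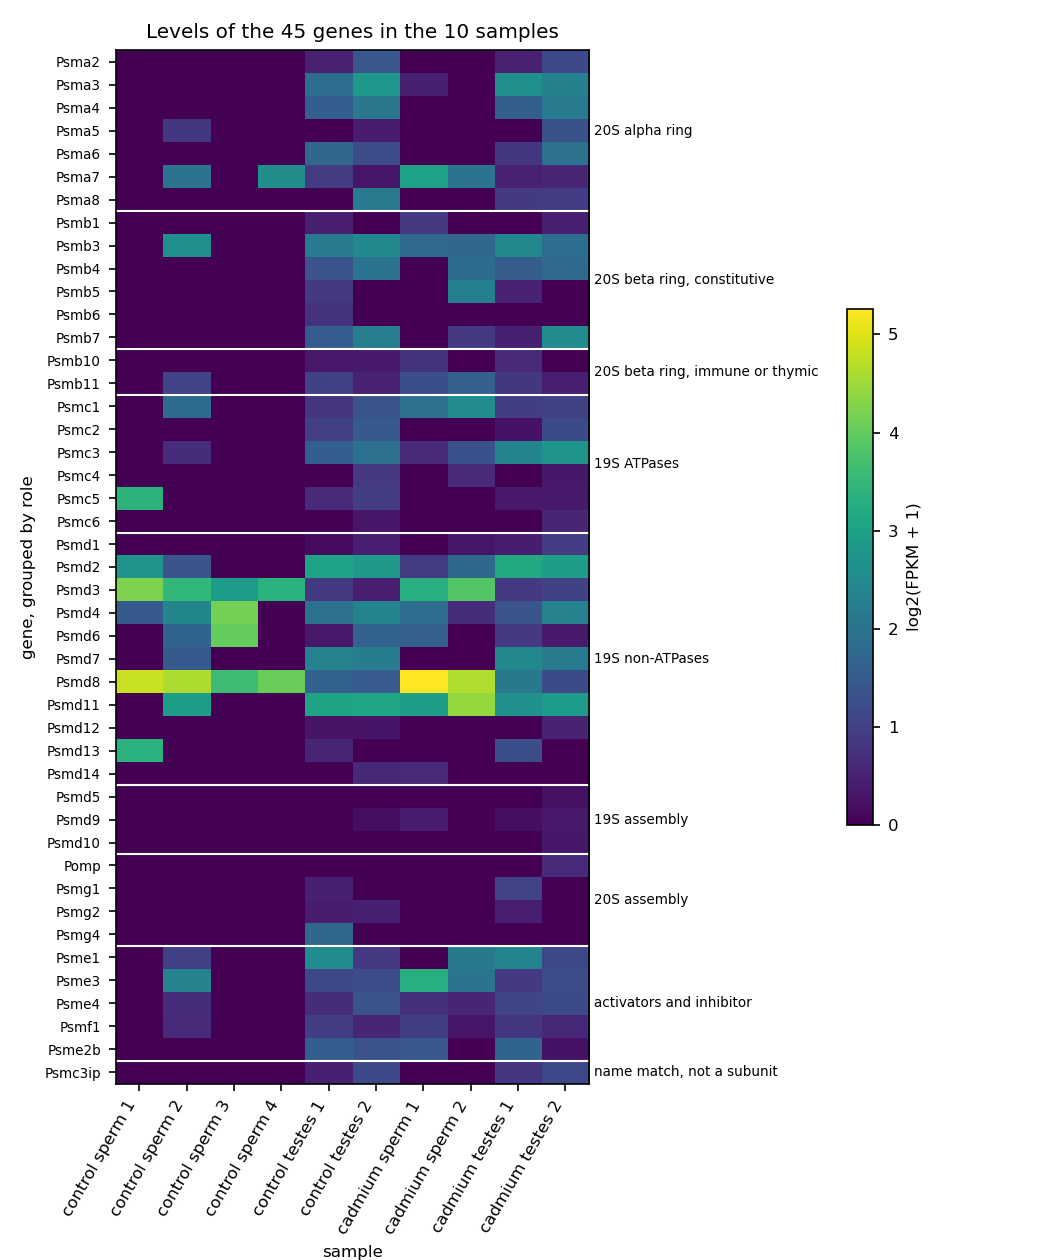
Level of each of the 45 genes (y axis, grouped by role) in each of the 10 samples (x axis), as log2(FPKM + 1) in colour. Psmd8 and Psmd3 are the genes that stay bright across the sperm samples, and most core subunits and assembly factors are dark there.

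The summed level of the set did not separate the tissues. The 45 genes summed to 71.4, 70.1, 49.9 and 30.3 FPKM in control sperm pools 1 to 4, to 61.6 and 71.3 FPKM in control testes, to 88.3 and 90.0 FPKM in cadmium sperm, and to 61.9 and 65.8 FPKM in cadmium testes. Control sperm (50.1 ± 19.9 FPKM, SD, n = 3, pool 1 left out) overlapped control testes (66.5 ± 6.86 FPKM, SD, n = 2), and both cadmium sperm samples lay above every other sample. As a share of the FPKM of all RefSeq mRNA transcripts the set held 0.0684 to 0.181% in control sperm, 0.157 and 0.209% in cadmium sperm and 0.139 to 0.147% in testes, and on that scale the groups of sperm overlapped. What differed was the make-up of the sum. Psmd3 and Psmd8 held 63.2, 48.3, 35.4 and 83.3% of it in control sperm pools 1 to 4 and 52.5 and 41.4% in cadmium sperm. In testes they held 4.81 and 3.07% (control) and 6.75 and 3.51% (cadmium). Both genes were picked out for their high values in sperm, so these shares are a description only, and neither they nor the sums were tested.

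Psmd8 and Psmd3 were the proteasome genes found in every sperm sample. Psmd8 encodes the lid subunit Rpn12 and lies at chr7:29174187-29180673 of GRCm38.p6. It measured 27.2, 23.6, 11.2 and 15.97 FPKM in control sperm pools 1 to 4, 2.13 and 1.83 FPKM in control testes, 37.4 and 23.7 FPKM in cadmium sperm and 3.35 and 1.26 FPKM in cadmium testes. Behind these levels stood 6 to 64 counts per sperm sample and 5 to 14 per testes sample. Every sperm sample was above every testes sample. Psmd3 encodes the lid subunit Rpn3 and lies at chr11:98682554-98695978 of the same build. Psmd3 measured 17.9, 10.3, 6.49 and 9.30 FPKM in control sperm pools 1 to 4, 0.83 and 0.36 FPKM in control testes, 8.98 and 13.6 FPKM in cadmium sperm and 0.83 and 1.05 FPKM in cadmium testes. Here too the tissues did not overlap, with 5 to 36 counts per sperm sample and 2 to 6 per testes sample.

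The promoters of members that differed between the tissues are given from RefSeq (GRCm38.p6), from 250 bases before to 50 bases after a listed start, and on the strand of the gene. For Psma3 the listed start lies inside the gene as RefSeq places it (chr12:70969283-70995877), and so does that of Psma4 (chr9:54950781-54958034). Psmd8 (chr7:29180624-29180923, minus strand) and Psma7 (chr2:180042415-180042714, minus strand) stand for genes that were higher in cadmium sperm, and Psma3 (chr12:70974373-70974672, plus strand) and Psma4 (chr9:54950609-54950908, plus strand) for genes that were lower. Psmd3 and Psmd7 had no entry in the table. Capitals mark the letters CCAAT on either strand.
Psmd8: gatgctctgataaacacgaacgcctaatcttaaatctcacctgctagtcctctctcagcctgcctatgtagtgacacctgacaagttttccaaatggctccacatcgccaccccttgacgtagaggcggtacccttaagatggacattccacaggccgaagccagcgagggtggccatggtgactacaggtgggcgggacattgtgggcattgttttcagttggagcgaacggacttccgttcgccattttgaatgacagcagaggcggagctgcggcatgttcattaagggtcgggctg
Psma7: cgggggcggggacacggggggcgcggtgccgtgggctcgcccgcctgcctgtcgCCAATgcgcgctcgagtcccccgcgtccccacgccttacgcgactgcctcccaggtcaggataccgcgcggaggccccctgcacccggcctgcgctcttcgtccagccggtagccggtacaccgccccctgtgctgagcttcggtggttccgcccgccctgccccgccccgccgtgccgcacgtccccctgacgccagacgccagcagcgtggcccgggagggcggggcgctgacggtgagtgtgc
Psma3: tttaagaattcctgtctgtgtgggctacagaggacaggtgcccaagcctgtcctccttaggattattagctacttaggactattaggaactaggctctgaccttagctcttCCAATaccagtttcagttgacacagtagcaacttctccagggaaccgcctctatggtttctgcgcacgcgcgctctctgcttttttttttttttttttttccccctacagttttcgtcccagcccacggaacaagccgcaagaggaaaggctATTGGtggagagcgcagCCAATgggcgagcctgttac
Psma4: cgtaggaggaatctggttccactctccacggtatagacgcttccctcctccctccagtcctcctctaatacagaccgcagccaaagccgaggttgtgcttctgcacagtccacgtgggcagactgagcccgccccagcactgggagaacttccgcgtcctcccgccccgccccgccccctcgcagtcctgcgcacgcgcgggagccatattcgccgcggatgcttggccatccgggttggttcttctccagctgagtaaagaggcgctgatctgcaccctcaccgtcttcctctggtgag
CCAAT was found 0 times in the window of Psmd8, 1 time in that of Psma7, 3 times in that of Psma3 and 0 times in that of Psma4, so it did not divide the genes by direction. Among the promoters of the set in the table, 40 windows of 38 genes, 32.5% held it, against 37.4% of all 32851 windows. The letters TGACNNNGC, the core of the antioxidant response element to which regulators of proteasome genes bind, were in 15.0% of the set's windows and 12.4% of all windows. The letters TGACGTCA, the cAMP response element, were in 0 of the set's windows and in 1.79% of all. Both strands were searched, and the last pair of motifs, which both begin with TGAC, was counted separately. None of the 4 windows shown held either of them.

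Between control sperm and control testes, 21 of the 45 genes reached 1 FPKM in at least 2 of the 5 samples and were tested with edgeR. A gene was called at a Benjamini-Hochberg adjusted p under 0.05 over all genes tested and a change over 2-fold. By this rule 5 were lower in sperm (20.2% of all RefSeq mRNA genes tested were called lower) and 0 were higher (4.38% of these genes were called higher). At an unadjusted p under 0.05 there were 10 of the 21 genes, against a background of 37.6%. The 5 were the alpha subunits Psma3 and Psma4, the beta subunits Psmb4 and Psmb7, of which Psmb7 carries the trypsin-like activity, and the base ATPase Psmc2. All 5 had 0 counts in control sperm pools 2, 3 and 4 and passed the limit on low levels through testes alone, so their count is no support for a difference of the set.

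Psma3 measured 2.74 and 5.98 FPKM in control testes, from 18.3 and 36.3 counts, and 0 in all 4 control sperm pools. Its share of counts in testes was 6.43-fold the 3-count limit of sperm pools 2 to 4 (edgeR adjusted p = 0.0472). Psma4 measured 1.99 and 3.30 FPKM in control testes, from 6 and 9 counts, 1.77-fold that limit as a share (edgeR adjusted p = 0.0472). Psmb7 measured 1.89 and 3.76 FPKM, Psmc2 1.00 and 1.77 FPKM and Psmb4 1.54 and 2.99 FPKM in control testes, and all 3 were at 0 in every control sperm pool. Their testes shares were 1.65-fold, 1.53-fold and 1.29-fold the limit, with edgeR adjusted p of 0.0472, 0.0473 and 0.0497. Counting error in testes is not in these ratios, and on their own those close to 1 show no difference. Every one of the 5 calls lay close to the threshold. With control sperm pool 4 left out or without the limit on low levels, 0 of the set were called. With either testes sample left out, the 5 genes could no longer pass that limit, so their loss there was fixed beforehand. With pool 2 left out only Psmd2 was called, with pool 3 left out Psma3, Psmd3 and Psmd8 were, and with limma on log2(FPKM + 1) the calls rose to 10.

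In the same comparison Psmd3 was higher in control sperm by 3.66 on the log2 scale (standard error 1.61, edgeR adjusted p = 0.0927) and Psmd8 by 2.93 (1.40, adjusted p = 0.126). Neither passed the threshold, although no sperm pool overlapped a testes sample for either gene. Both were called by DESeq2 (adjusted p = 0.00803 for Psmd3 and 0.0191 for Psmd8) and with all 4 groups in 1 model (adjusted p = 0.0195 and 0.0306). Neither was called with the replicate block and pool 1 added (adjusted p = 0.316 and 0.371), nor without the limit on low levels (adjusted p = 0.202 and 0.263). Over all alternatives the adjusted p ran from 0.00528 to 0.969 for Psmd3 and from 0.00612 to 0.947 for Psmd8. Psmd2, the base subunit Rpn1 that docks ubiquitin receptors, was at 5.63, 1.61, 0 and 0 FPKM in the 4 pools and 7.27 and 6.17 FPKM in control testes. Its log2 fold change was -3.29 (standard error 1.51, edgeR adjusted p = 0.108). These 3 genes were named after their values were seen. Over the tested genes, 2 were higher and 11 lower in sperm without overlap of the groups, against 9.31% and 45.7% of all RefSeq mRNA genes tested. The median log2 fold change of the 21 was -2.24, against -1.22 over all such genes.

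Between cadmium sperm and cadmium testes, which share no sample with the comparison before, 18 genes were tested and 9 were called. Of these, 5 were higher in sperm (20.7% of all RefSeq mRNA genes tested were called higher) and 4 were lower (18.9% were called lower). At an unadjusted p under 0.05 there were 12, against 50.3%, and without overlap of the groups 7 were higher and 7 lower, against 30.6% and 42.9%. The genes that were higher were the lid subunits Psmd8, Psmd3 and Psmd11, the alpha subunit Psma7 and the nuclear activator Psme3 (PA28 gamma). Those that were lower were the alpha subunits Psma3 and Psma4, the base subunit Psmd2 and the lid subunit Psmd7. Lid subunits were thus on both sides. Of the 9, only Psmd8 and Psmd11 reached 1 FPKM in both samples of each tissue. The other 7 passed the limit on low levels only with the samples of the tissue where they were higher, 3 through sperm and 4 through testes, so their count is no support for a difference of the set.

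The largest rise relative to its error was that of Psmd8, by 3.98 on the log2 scale (standard error 0.65, edgeR adjusted p = 3.04e-08), followed by Psmd3 with 3.81 (0.73, adjusted p = 3.13e-06). Both stayed called under every alternative but 1: without cadmium testes 1 the adjusted p was 0.0556 for Psmd8 and 0.0947 for Psmd3. Psme3 measured 9 and 3.07 FPKM in cadmium sperm and 0.82 and 1.29 FPKM in cadmium testes, so that it was higher in sperm by 2.65 on the log2 scale (standard error 0.76, edgeR adjusted p = 0.00275). In control sperm it was at 4.01 FPKM in pool 2 and at 0 in the other 3 pools. Psmd11, the lid subunit Rpn6, measured 6.57 and 20.5 FPKM in cadmium sperm and 5.37 and 6.52 FPKM in cadmium testes. The lower sperm sample stood only just above the higher testes sample, and the log2 fold change of 1.47 (standard error 0.61, edgeR adjusted p = 0.0486) was not called with RLE size factors, DESeq2 or limma. With cadmium sperm 1 left out, Psme3, Psma4 and Psmd2 were no longer called, and with cadmium sperm 2 left out Psma4 and Psmd11 were not. With either of these samples left out, Psma7 could no longer pass the limit on low levels, so its loss there was fixed beforehand.

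On the other side, Psma3 measured 0.37 and 0 FPKM in cadmium sperm and 5.27 and 3.95 FPKM in cadmium testes (log2 fold change -4.28, standard error 1.21, edgeR adjusted p = 0.00258). Psmd2 measured 0.88 and 2.44 FPKM in cadmium sperm and 8.17 and 6.69 FPKM in cadmium testes (log2 fold change -1.85, standard error 0.70, edgeR adjusted p = 0.0286). Psmd7, the lid subunit Rpn8 that partners the deubiquitinase Psmd14, was at 0 in both cadmium sperm samples and at 4.51 and 3.56 FPKM in cadmium testes. Its share of counts in cadmium testes, taken as measured, was 5.06-fold the limit that a count of 0 allows in cadmium sperm (edgeR adjusted p = 0.00497). Psma4 was at 0 in cadmium sperm and at 2.01 and 3.52 FPKM in cadmium testes, 2.31-fold that limit as a share (edgeR adjusted p = 0.0384). Neither the counting error in testes nor the spread between samples is in these ratios, so they are no bounds on the difference. The sperm and testes samples did not overlap for any of these 4 genes. With either cadmium testes sample left out, Psma3, Psma4 and Psmd7 could no longer pass the limit on low levels, so their loss there was fixed beforehand.

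**Figure D3:**
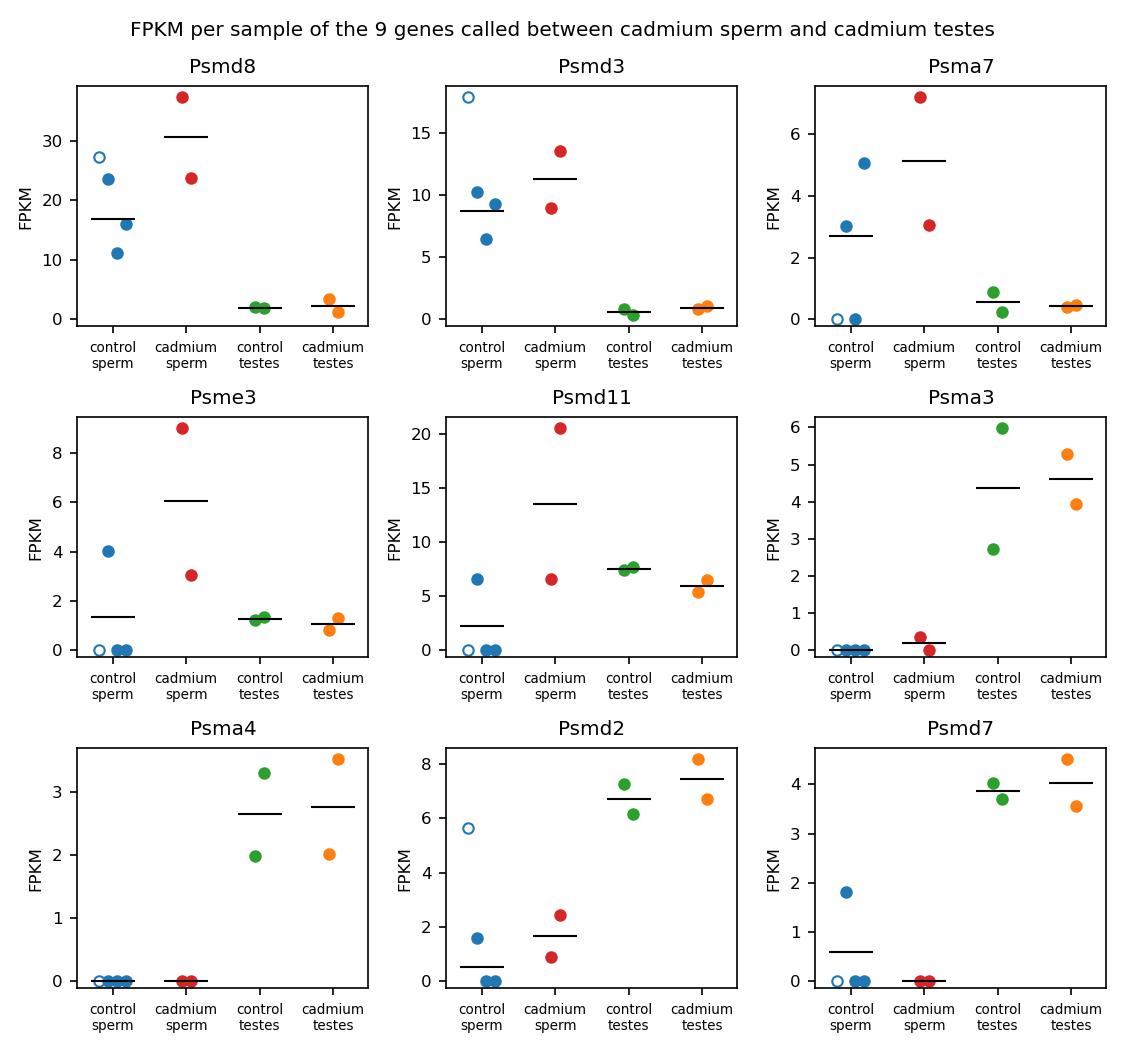
FPKM (y axis, its own scale in each panel) of the 9 genes called between cadmium sperm and cadmium testes, in the 4 groups (x axis). Each point is 1 sample, bars are group means, and the open circle is control sperm pool 1, which the mean leaves out. Psmd8 and Psmd3 are high in all 6 sperm samples, and Psma3 and Psma4 are at or near 0 there.

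The tissue difference could be compared between control and cadmium samples for 17 genes tested in both. The sign of the log2 fold change was the same in 13 (83.2% of all RefSeq mRNA genes tested in both kept their sign), with 4 higher and 9 lower in sperm both times, and opposite in Psmb11, Psmc1, Psmd4 and Psmd11. Psma3 and Psma4 were the 2 genes called in both, against a background of 16.8%, and both had entered each test through testes alone. Psmb4, called lower in control sperm, was at 0 and 2.63 FPKM in cadmium sperm and 1.95 and 2.46 FPKM in cadmium testes, and its log2 fold change there was -0.41 (standard error 1.18, edgeR adjusted p = 0.833). A test of the difference between the tissue contrasts is the same as that of the cadmium effect between tissues and called 0 genes of the set. For Psmd8 that difference was 0.52 on the log2 scale (standard error 1.42), for Psmd3 -0.41 (1.48) and for Psmd11 2.43 (1.45), each with an edgeR adjusted p of 1.00.

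**Figure D4:**
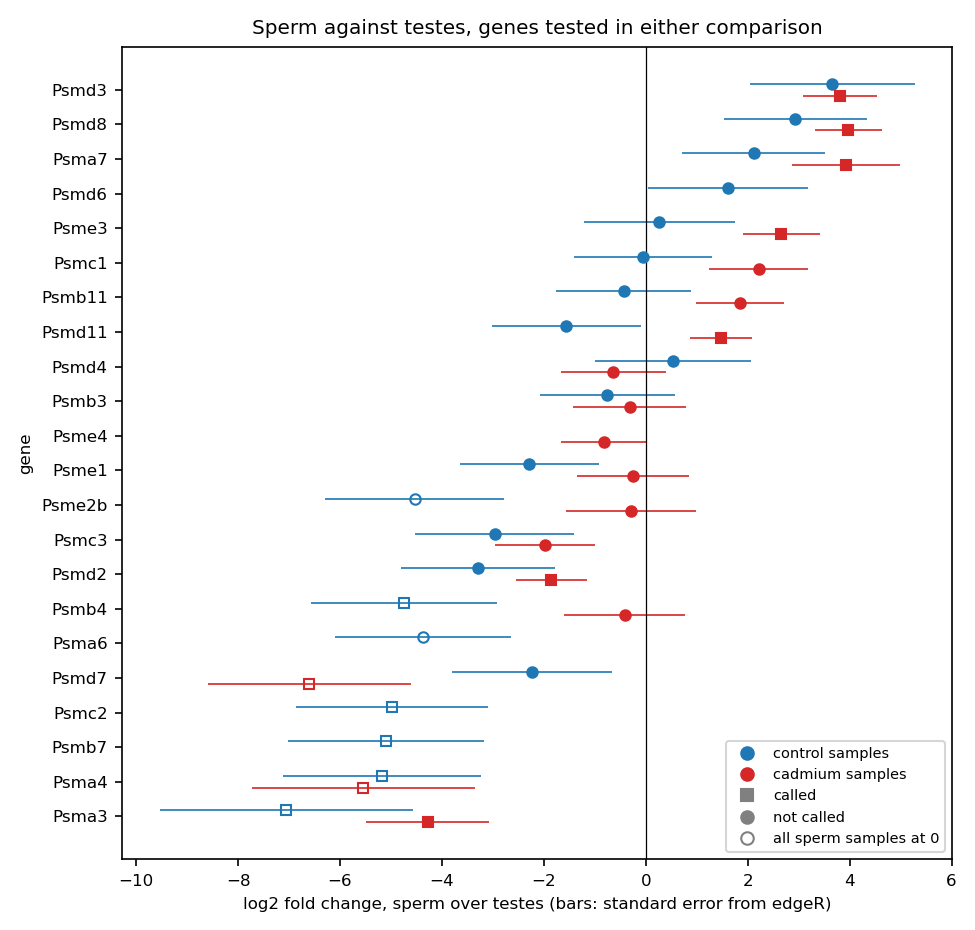
Log2 fold change of sperm over testes (x axis) with its edgeR standard error, for each gene tested in control samples (blue) or cadmium samples (red). Squares are called, circles are not, and open symbols mark genes at 0 in all sperm samples tested in that comparison. The fitted value of such a gene depends on the prior count and is no bound. Psmd3, Psmd8, Psma7 and Psme3 lie to the right of 0 in both comparisons, Psme3 at only 0.27 in the controls.

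Of the interchangeable alpha subunits, Psma7 was listed in both tissues and Psma8 in testes alone. Psma7 measured 0, 3.03, 0 and 5.06 FPKM in control sperm pools 1 to 4 and 7.21 and 3.07 FPKM in cadmium sperm, against 0.90 and 0.25 FPKM in control testes and 0.39 and 0.48 FPKM in cadmium testes. It was higher in cadmium sperm than in cadmium testes by 3.92 on the log2 scale (standard error 1.06, edgeR adjusted p = 0.00149), and not called in the controls (2.12, standard error 1.40, adjusted p = 0.279), where the pools overlapped the testes. It was under 1 FPKM in both samples of cadmium testes and so was tested only through sperm, where it was higher. The counts behind it were 19 in cadmium sperm and 3 in cadmium testes. Of its 36 counts over all samples, 35 fell on the 1591-base transcript NM_001289476 and 1 on the 952-base NM_011969. Psma8 (chr18:14706135-14762301, GRCm38.p6) was at 0 in all 6 sperm samples, at 0 and 3.49 FPKM in control testes and at 0.85 and 0.90 FPKM in cadmium testes. Its counts were 0 and 15 in the control testes samples and 4 in each sample of cadmium testes. Over all samples its testes share of counts, taken as measured, was 3.31-fold the 3-count limit of sperm, which was not tested. Within testes, Psma8 made up 0 and 93.3% of the FPKM of the pair in the controls and 68.5 and 65.2% after cadmium, so the control samples spanned both cadmium samples. In none of the 4 sperm samples with either gene was Psma8 found.

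**Figure D5:**
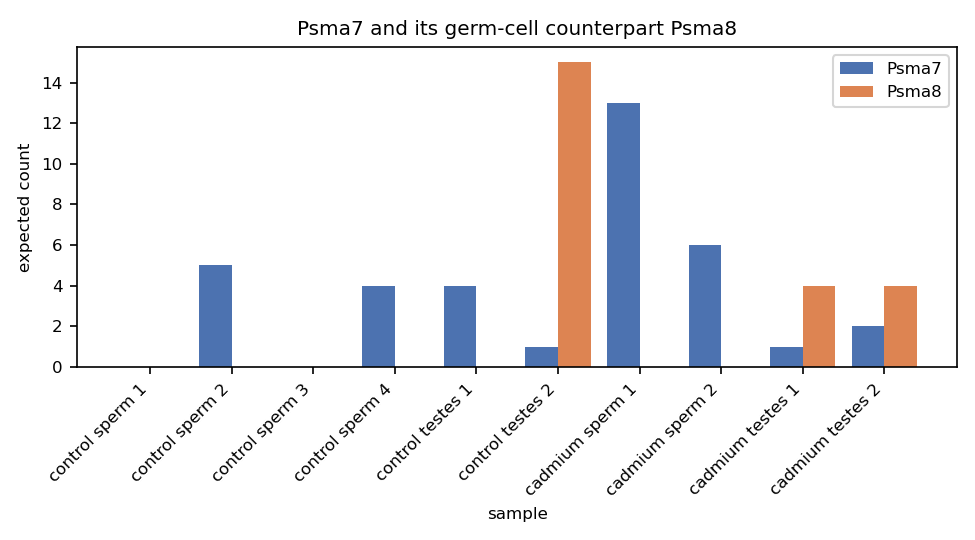
Expected counts (y axis) of Psma7 and Psma8 in each of the 10 samples (x axis), on libraries of unequal depth. Psma8 has counts in 3 testes samples and none in sperm, and the most counts of Psma7, 13, are in cadmium sperm 1.

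The catalytic beta subunits were thinly counted, and Psmb5, Psmb6 and Psmb10 reached no test. Psmb5, the chymotrypsin-like subunit, was at 0.85 and 0 FPKM in control testes, 0.43 and 0 FPKM in cadmium testes and 0 and 3.83 FPKM in cadmium sperm, and at 0 in all control sperm pools. The last of these values came from 4 counts. Psmb6, the caspase-like subunit, was listed only in control testes 1, at 0.70 FPKM. Psmb7 was at 0 and 0.86 FPKM in cadmium sperm and at 0.38 and 4.82 FPKM in cadmium testes. Its inducible counterpart Psmb10 was at 0.28 and 0.31 FPKM in control testes, 0.57 and 0 FPKM in cadmium testes, 0.70 and 0 FPKM in cadmium sperm and 0 in control sperm, with no more than 2 counts in a sample. Psmb10 held 12.9 and 7.62% of the FPKM of the pair in control testes and 60 and 0% after cadmium, a spread that allows no statement. Psmb11, the thymic counterpart of Psmb5 and its neighbour on the chromosome, had more counts than either, with 1.02 and 0.40 FPKM in control testes, 0.80 and 0.35 FPKM in cadmium testes and 1.40 and 2.07 FPKM in cadmium sperm. Part of these counts were fractions such as 6.84, which the authors' counting assigned among transcripts.

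Among the other structural subunits, Psmb3 was listed in both testes groups (3.57 and 4.51 FPKM in controls) and in 3 of 6 sperm samples, and was not called in any comparison. Psmd4, the ubiquitin receptor Rpn10 of the cap, ranged in control sperm from 0 to 16.96 FPKM, the latter from 8 counts in pool 3, and Psmd6 from 0 to 15.3 FPKM, from 7 counts in the same pool. In testes they lay at 1.63 to 4.17 FPKM and 0.28 to 2.15 FPKM. Of the ATPases, Psmc1 was at 2.96 and 4.92 FPKM in cadmium sperm and 0.97 and 1.02 FPKM in cadmium testes (edgeR adjusted p = 0.0643), and Psmc3 was at 0.54 and 1.49 FPKM against 4.19 and 5.57 FPKM (adjusted p = 0.108). Neither passed the threshold. Psmc4, Psmc5, Psmc6, Psmd1, Psmd12, Psmd13, Psmd14, Psma5 and Psmb1 had at most 8 counts in any sample.

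Assembly factors were nearly confined to testes, at few counts. Pomp, the maturation factor of the core, had 1 count (0.54 FPKM), in cadmium testes 2, and 0 in the other 9 samples. Psmg1, Psmg2 and Psmg4 had between 0 and 3 counts in each testes sample and 0 in sperm. Of the chaperones of the cap, Psmd5 and Psmd10 had 1 count each, in cadmium testes 2, and Psmd9 had 1 count in cadmium sperm 1 and 1 or 2 in 3 testes samples. None of the 7 was tested, and an effect of tissue or cadmium on them was not detectable at this depth.

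Of the activators, Psme3 and Psme4 were among the better counted genes, while Psme2b reached at most 6.49 counts in a sample and the inhibitor Psmf1 at most 9. Psme4 (PA200) was at 0, 0.59, 0 and 0 FPKM in control sperm pools 1 to 4, 0.60 and 1.55 FPKM in control testes, 0.67 and 0.49 FPKM in cadmium sperm and 1.15 and 1.26 FPKM in cadmium testes. In testes this rested on 11 to 26 counts per sample. Between cadmium sperm and cadmium testes its log2 fold change was -0.83 (standard error 0.84, edgeR adjusted p = 0.481). Psme1 (PA28 alpha) ranged from 0.83 to 4.86 FPKM in testes and from 0 to 3.40 FPKM in sperm. Psme2b was at 0.19 to 2.25 FPKM in testes, and as a near copy of Psme2, which had no value here, it may hold reads of that gene. The inhibitor Psmf1 was at 0.47 to 0.95 FPKM in testes and 0 to 0.98 FPKM in sperm.

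Cadmium against saline was compared within each tissue. In testes 20 genes of the set were tested and 0 were called (0.0587% of all RefSeq mRNA genes tested were called). None of the set had an unadjusted p under 0.05 in edgeR, against 0.821% of those genes, and 0 were called by DESeq2, limma or any other alternative run. The median log2 fold change of the set was 0.01. The groups did not overlap for 2 genes, Psmc3, at 1.97 and 2.90 FPKM in controls and 4.19 and 5.57 FPKM after cadmium, and Psmd11, at 7.37 and 7.68 against 5.37 and 6.52 FPKM. The background was 8.96% higher and 11.1% lower without overlap. For Psmc3 the log2 fold change was 1.07 (standard error 0.66, edgeR adjusted p = 1.00). For the best counted gene, Psmd2 with 47 to 68 counts per testes sample, the log2 fold change was 0.21 with a standard error of 0.49, and for Psme4 it was 0.18 with 0.65. For Psmb7 it was -0.0018 with 0.83. The sign for Psme4 and for Psmb7 changed with the samples used, from -0.48 to 1.29 for Psme4 with 1 sample left out. Psma7 and Psma8 were under the limit on low levels and were not tested.

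In sperm, 12 genes were tested between cadmium and control pools 2 to 4, and 0 were called (0.0743% of all RefSeq mRNA genes tested were called). In edgeR 0 had an unadjusted p under 0.05, against 4.70%, and 0 were called by DESeq2, limma or any other alternative. Psmd8, Psmc1 and Psmb11 were higher in both cadmium samples than in the 3 pools, against a background of 21.1% of genes, and 0 were lower in both (1.81%). For Psmd8 the samples were 37.4 and 23.7 FPKM after cadmium and 23.6, 11.2 and 15.97 FPKM in the pools, so that the lower cadmium sample was nearly level with pool 2, and pool 1 with 27.2 FPKM lay between the cadmium samples. The log2 fold change was 0.81 (standard error 0.92, edgeR adjusted p = 1.00) for Psmd8, 0.42 (1.14) for Psmd3 and 0.81 (1.93) for Psma7. The median of the 12 genes was 1.02, against 0.50 for all RefSeq mRNA genes tested, and the cadmium samples were deeper than every control pool. The part of depth in that shift was not tested. The difference of the cadmium effect, sperm minus testes, was tested for 24 genes and called for 0 (0.0151% of all RefSeq mRNA genes tested were called), with 0 at an unadjusted p under 0.05 (3.33%). It was 1.24 on the log2 scale for Psma7 (standard error 1.90) and 0.77 for Psme4 (1.73).

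Psmd8 had a neighbour with the same pattern. Ggn, a gene of germ cells, begins or ends 249 bases from Psmd8, and was looked at after the values of Psmd8 were seen. Ggn measured 44.1, 41.4, 22.0 and 42.7 FPKM in control sperm pools 1 to 4, 3.80 and 2.79 FPKM in control testes, 65.8 and 31.6 FPKM in cadmium sperm and 3.76 and 2.12 FPKM in cadmium testes. Its level was 1.12 to 2.67 times that of Psmd8 in each of the 10 samples, and both genes were lower in each testes sample than in any sperm sample. Ggn was called higher in sperm in both tissue comparisons, by 3.36 in controls (standard error 0.97, edgeR adjusted p = 0.0165) and by 4.27 after cadmium (0.62, adjusted p = 2.56e-10). Catsperg1, 859 bases away on the other side, was at 0 to 0.45 FPKM in all samples. The neighbours of Psmd3, Gsdma and Csf3, stayed at 0 to 1.80 FPKM, and those of Psma7, Lsm14b and Ss18l1, at 0 to 2.41 FPKM. Whether reads of Ggn and Psmd8 belong to a joint transcript was not tested.

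The genes that work around the proteasome, outside the set, were followed as a list of 33, of which 28 had values. They summed to 22.4 to 76.1 FPKM in sperm and 97.1 to 127 FPKM in testes, without overlap. In control samples 15 were tested, of which 0 were called higher and 2 lower in sperm, against a background of 4.38% and 20.2%. These were Usp14, the deubiquitinase on the cap, at 0 in every control pool and 8.52 and 14.9 FPKM in testes, and Rps27a, which encodes ubiquitin fused to a ribosomal protein. In cadmium samples 16 were tested, with 2 called higher and 3 lower, against 20.7% and 18.9%. The ubiquilins Ubqln1 and Ubqln4, which carry ubiquitinated proteins to the proteasome, were higher by 1.91 (standard error 0.73, edgeR adjusted p = 0.0306) and 4.80 (0.96, adjusted p = 8.55e-06). Lower were Usp14, by -4.23 on the log2 scale (standard error 0.75, edgeR adjusted p = 4.00e-07), the ubiquitin gene Ubb and the lid subunit Shfm1, which was at 0 in cadmium sperm. For cadmium in testes (14 tested), cadmium in sperm (13 tested) and the difference between these effects, edgeR called 0 of the list, and 0 had an unadjusted p under 0.05. Of 10 antigen processing genes that accompany the immune subunits, 9 had values. They summed to 18.5 to 55.7 FPKM in sperm and 20.9 to 27.6 FPKM in testes. Tapbp alone was at 2.01 to 47.72 FPKM in sperm and 17.65 to 23.82 FPKM in testes. The peptide transporter Tap1 was called higher in control sperm (4 tested), although pool 3 with 5.80 FPKM and pool 2 with 1.33 FPKM were the only pools with a value. H2-D1 was called higher in cadmium sperm (3 tested). For cadmium edgeR called 0 in either tissue, with 1 in sperm (Tapbp) and 0 in testes at an unadjusted p under 0.05. Of the genes called on these lists, Ubqln1, Ubqln4, Tap1 and H2-D1 passed the limit on low levels only with the sperm samples. Usp14, Rps27a and Shfm1 passed it only with the testes samples, and Ubb with either. The counts of calls are thus no support for a difference of these lists.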

How the data were processed

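RNA of 10 samples was profiled, and 1 table per sample lists each transcript above 0 with its length, expected count and FPKM. Expected counts, as the authors deposited them, are estimates without normalization, and the deposited FPKM divide them by length and library size. Reads had been filtered for adaptors and quality. The paper names SOAPaligner/SOAP2 and the submitters' processing notes name HISAT and the build mm10, while the counting tool and its strand setting are not given in the sources used here. A transcript that a table did not list was taken as 0, and transcripts with NM_ identifiers were summed by gene symbol, while the other classes entered the fits as genes of their own.

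Expected counts were rounded, scaled by TMM and tested in edgeR 4.0.16 (quasi-likelihood, R 4.3.3) over every gene that reached 1 FPKM in 2 or more of the samples compared. A call needed a change over 2-fold and a p under 0.05 after Benjamini-Hochberg adjustment. The standard error is the log2 fold change divided by the square root of F, worked back from the test. Samples took their groups from the labels, and the 5 comparisons were sperm against testes within each treatment, cadmium against control within each tissue, and the difference of the cadmium effect. Alternatives were RLE, DESeq2 1.42.0, limma 3.58.1 on log2(FPKM + 1) and log2(FPKM + 0.1), other filters, 1 model of 4 groups, a replicate block and samples left out. No pair of samples within a group agreed within sampling noise (chi-square per degree of freedom at least 9.57). The test was checked on simulated counts, with changes put only into genes expected above 10 counts in the smallest library. Most genes of the set lie under that, so the check does not cover them. Tables and figures were made with Python 3.11.15, pandas 2.3.3, numpy 2.4.6 and matplotlib 3.10.9.

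Every member is accounted for by role. Values in every sample are given for Psma7, Psma8, Psmb5, Psmb6, Psmb7, Psmb10, Psme4 and Pomp (Psmb8 and Psmb9 had none), and the test for these and for members called in a comparison. The members, lists and alternatives were chosen with earlier results of these data known. A floor of 3 counts, taken over a group, stands for a count of 0. Limits of that kind cover the counting error of the 0 only, and the counts of the other group are taken as measured.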

Additional observations from a re-analysis of the deposited data

Results flagged for a closer look

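Within the 4 control sperm pools, 14 of the 19 proteasome genes with a value there had 1 pool set apart from the other 3, by Dixon's limit for 4 samples. Chance flags about 1 in 20 groups, and a gene counted in a single pool always meets this limit. In pool 2, the deepest, these were Psma5 with 0.80 FPKM, Psmb3 with 5.27, Psmb11 with 1.12, Psmc1 with 2.59, Psmc3 with 0.59, Psmd7 with 1.81, Psmd11 with 6.62, Psme1 with 1.00, Psme3 with 4.01, Psme4 with 0.59 and Psmf1 with 0.57 FPKM, each at 0 in the other 3 pools. In pool 3, the shallowest, Psmd6 stood at 15.3 FPKM, from 7 counts, with 2.25 FPKM in pool 2 and 0 in the others.

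Pool 1, which the comparisons leave out, alone held the ATPase Psmc5 at 9.55 FPKM and the lid subunit Psmd13 at 9.29 FPKM among all sperm samples. They rested on 5 and 6 counts, above the 3 counts that a 0 allows, and in testes the genes reached 0.94 and 1.39 FPKM.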

How the results depend on the processing

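Between control sperm and control testes the 5 calls became 3 with DESeq2, 10 and 8 with limma (pseudocounts 1 and 0.1), 0 without a filter, 1 with a filter of 10 counts in 2 samples, 0 with the replicate block and pool 1 added, and 0 to 3 with 1 sample left out. Between cadmium sperm and cadmium testes the 9 calls became 4 with limma (pseudocount 0.1), 4 with 1 model of 4 groups, 7 with the replicate block, and 0 to 6 with 1 sample left out. Without a testes sample, genes at 0 in sperm can no longer pass the filter, nor can Psma7 without a sample of cadmium sperm in the cadmium comparison. The other causes were not tested. For cadmium in either tissue and for the difference between tissues, 0 of the set were called under every alternative run. The replicate block changed no other number of calls in the set. Over all genes it raised the calls for cadmium in testes from 6 to 89, and with pool 1 added it lowered those for control tissues from 5353 to 1566. Samples with equal numbers shared deviations between control and cadmium testes (correlation 0.47, only 2 pairs) and little otherwise (-0.05 to 0.08).

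For Psmb7 in testes the log2 effect of cadmium was 0.018 without a filter and -2.88 to 0.93 with 1 sample left out. For Psme4 it was -0.48 to 1.29, and its difference between tissues was -0.41 to 5.77. In counts scaled by transcript length and library size, the summed level of the set in cadmium sperm was 87.3, and Psma8 held 72.1% of the pair in cadmium testes. Listed genes averaged 36 per sample in control testes, 19.5 in cadmium sperm and 35.5 in cadmium testes. With at least 3 counts required these were 24.5, 12.5 and 24.0, and after thinning 18.0, 13.5 and 17.8.

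Calls over all genes were 5353 (880 to 7129 under alternatives) for control tissues, 8154 (563 to 8154) for cadmium tissues, 6 (0 to 89) for cadmium in testes, 17 (0 to 1168) for cadmium in sperm and 13 (0 to 26) for the difference. RLE size factors moved the median of all genes for cadmium in sperm from 0.43 to 0.27, and the calls from 10 higher and 7 lower to 4 and 5. Limma with pseudocount 0.1 gave 1166 higher and 2 lower there, with a median of 1.43. Depth also limits the set: 29 of 45 genes had under 10 counts in every sample.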
